A study of Homo sapiens with 16 samples.

Results

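The 10 genes described here encode surface proteins that are used or studied as targets of antibodies, bispecific antibodies or CAR T cells in multiple myeloma. They are SDC1, TNFRSF17, CD38, SLAMF7, GPRC5D, FCRL5, CD47, CD48, TNFRSF13B and CD27. Their rows were taken by symbol from a table of 23354 genes. A filter on low counts kept 14215 genes for testing, and 9 of the 10 were among them, all but CD27. The RNA-seq was made from 2 human myeloma cell lines, MM1S, labelled glucocorticoid sensitive, and MM1R, labelled glucocorticoid resistant. Cells of each line received vehicle, 0.1 μM TAK-981, 1 μM dexamethasone (Dex) or both drugs at these doses (combo) over 48 h. The 8 groups had 2 libraries apiece. The target of TAK-981 is SUMO E1, the enzyme that opens the cascade of SUMO attachment to other proteins, and Dex is a glucocorticoid that acts through the glucocorticoid receptor. No label names an introduced allele or transgene. Each result holds for the line it was measured in, and only RNA was measured, not protein at the cell surface.

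Plasma cells lose most B cell surface proteins when they differentiate and gain others, among them SDC1 (syndecan-1, CD138), TNFRSF17 (BCMA) and high CD38, which is why these serve to identify and to target myeloma cells. TNFRSF17 and TNFRSF13B (TACI) are receptors for APRIL and BAFF, CD27 is the receptor for CD70, and all 3 belong to the TNF receptor superfamily. SLAMF7 and CD48 belong to the SLAM family, FCRL5 is an Fc receptor-like protein of the B lineage, GPRC5D is an orphan G protein-coupled receptor, CD38 is an ectoenzyme that consumes NAD, and CD47 is the ligand of SIRPA that restrains macrophages. Antibody-based therapy depends on the amount of its target on the cell, so a change in the RNA of such a gene is of interest when cells are given another drug.

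Libraries of MM1S held 15707587 to 20644510 counts (median 19108821) and those of MM1R 18987739 to 24796539 (median 22656930.5), so that 3 counts correspond to at most 0.191 CPM (counts scaled to a common library size) in any library. Replicates of a group differed by 2.11 to 21.7 times the sampling variance over genes (chi-square per degree of freedom), and each library was counted as 1 sample. The value was highest for MM1S with TAK-981 (21.7) and with Dex (19.5), and at most 9.32 in any other group. The test shared 1 estimate of the spread of a gene over all groups. The labels do not say that the 2 libraries of a group came from separate cultures, so p-values measure the spread between these samples, which may be technical. The labelled cell type was checked against marker genes fixed for this purpose. The 7 plasma cell markers (SDC1, TNFRSF17, IRF4, PRDM1, XBP1, MZB1 and JCHAIN) summed to between 4270 and 9980 CPM per library. Of the markers of B cells before the plasma cell stage, MS4A1 reached at most 0.124 CPM, PAX5 0.542 CPM and CD22 0.107 CPM. The 4 markers of T and NK cells summed to at most 5.76 CPM, of which CD3E gave up to 5.33 CPM and CD3D and NKG7 none, the 3 of monocytes to at most 0.543 CPM and the 3 of stromal and epithelial cells to at most 2.07 CPM. In such bulk libraries, fewer cells that carry an RNA and less of it per cell cannot be told apart.

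The first question was how strongly each antigen was expressed before treatment, and levels of different genes were compared per kb of gene model. In vehicle-treated MM1S cells SLAMF7 stood highest, at 281 ± 0.835 CPM per kb (SD, n = 2), above 99.2% of the genes tested. It was followed by TNFRSF17 at 230 ± 3.63 CPM per kb and SDC1 at 140 ± 1.15 CPM per kb. CD48 (111 ± 3.85 CPM per kb), TNFRSF13B (93.0 ± 6 CPM per kb) and GPRC5D (87.1 ± 5.12 CPM per kb) formed a middle group, each above at least 96.4% of tested genes. CD47 was at 37.9 ± 0.126 CPM per kb. CD38, the target of the antibody daratumumab, was far below these antigens, at 10.5 ± 1.53 CPM per kb, above 59.6% of tested genes. FCRL5 was among the lowest tested genes, at 0.166 ± 0.0183 CPM per kb, with 7.52% of tested genes below it. CD27 was read 0 to 9 times per library over all 16 libraries and was at 0 in 4 of them. The overlapping row of the antisense gene CD27-AS1 held 167 to 382 counts, and whether counting used strand is not given in the sources used here, so the few CD27 counts cannot be assigned to either gene.

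**Figure D1:**
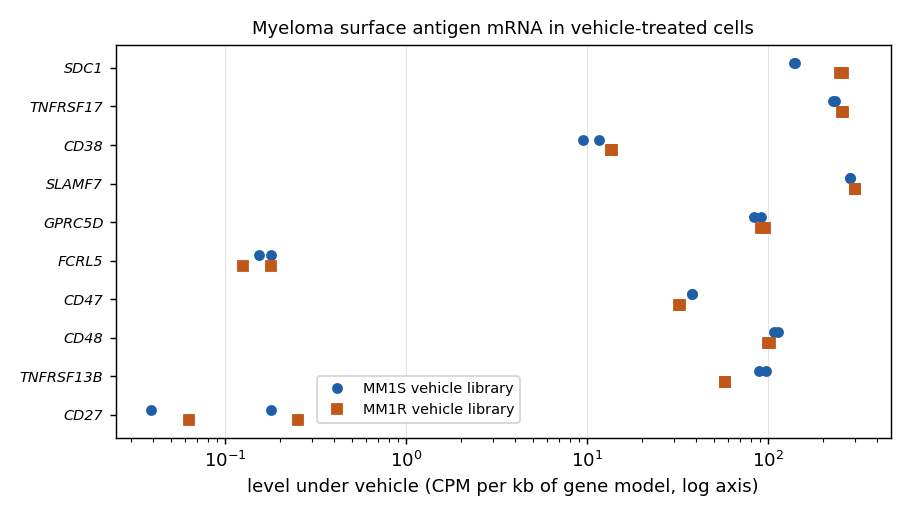
Level of the 10 genes in the 2 vehicle-treated libraries of MM1S (circles) and MM1R (squares), as CPM per kb of gene model on a log axis. SLAMF7, TNFRSF17 and SDC1 lie above 100 CPM per kb in every library, CD38 near 10 CPM per kb, and FCRL5 and CD27 below 1 CPM per kb.

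The order of the antigens in MM1R was nearly the same, and 4 of the 9 tested genes differed between the lines under vehicle, against 48.2% of all tested genes, 25.6% higher and 22.6% lower in MM1R. SDC1 was higher in MM1R, with a log2 fold change of 0.86 (SE 0.07, edgeR adjusted p = 2.02e-08). CD38 was also higher in MM1R (0.37, SE 0.09, edgeR adjusted p = 0.00325), but the call was lost without vehicle replicate 2 of MM1S (0.23, edgeR adjusted p = 0.0886). TNFRSF13B was lower in MM1R (-0.69, SE 0.07, edgeR adjusted p = 3.24e-07), and CD47 was lower as well (-0.23, SE 0.06, edgeR adjusted p = 0.00385). The differences of the other 5 genes lay between -0.13 and 0.16 and did not pass the threshold of 0.05.

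The upstream sequences of CD38, FCRL5 and GPRC5D are shown because these 3 genes carried the largest changes described below. They are the 250 bases before the RefSeq start site in GRCh38.p14, 5′ to 3′ on the strand of the gene, chr4:15778078-15778327 on the plus strand for CD38, chr1:157552516-157552765 on the minus strand for FCRL5 and chr12:12952171-12952420 on the minus strand for GPRC5D. Capitals mark a match to a searched motif.
CD38: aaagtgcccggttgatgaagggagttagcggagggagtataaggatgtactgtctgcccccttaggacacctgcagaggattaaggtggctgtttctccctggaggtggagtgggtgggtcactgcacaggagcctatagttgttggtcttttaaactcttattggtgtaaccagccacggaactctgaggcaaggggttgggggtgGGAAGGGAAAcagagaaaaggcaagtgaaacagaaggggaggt
FCRL5: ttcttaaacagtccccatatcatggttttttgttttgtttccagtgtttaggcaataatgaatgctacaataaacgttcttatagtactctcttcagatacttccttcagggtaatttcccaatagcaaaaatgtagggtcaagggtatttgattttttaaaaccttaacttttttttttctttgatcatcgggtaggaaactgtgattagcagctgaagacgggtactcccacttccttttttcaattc
GPRC5D: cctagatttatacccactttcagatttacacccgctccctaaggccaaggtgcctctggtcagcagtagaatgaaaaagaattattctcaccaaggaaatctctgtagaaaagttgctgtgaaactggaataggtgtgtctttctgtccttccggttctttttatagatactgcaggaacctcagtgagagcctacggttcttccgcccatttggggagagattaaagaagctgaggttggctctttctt
A promoter window (250 bases before to 50 after the start site) was given for 8 of the 10 genes, not for TNFRSF17 and SLAMF7. Both strands were searched for the core of the interferon-stimulated response element, an ETS-IRF composite element, the full palindromic glucocorticoid response element, AGAACA (a glucocorticoid half-site) and CACGTG (an E-box). The CD38 window held 1 match, the ETS-IRF letters in capitals above, starting 43 bases before the start site, and 2.82% of 35116 RefSeq promoter windows hold that motif. AGAACA, which 14.8% of windows hold, was found in CD48, 162 bases before the start site on the opposite strand, and in CD27, 115 bases before it. The windows of FCRL5, GPRC5D, SDC1, CD47 and TNFRSF13B held none of the 5 motifs. A match is a string of letters and not a measured site.

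With TAK-981 the log2 fold change of each of the 9 tested antigens had the same sign in both lines. In MM1S, 4 rose (SDC1, CD38, FCRL5 and CD47) and 5 fell (TNFRSF17, SLAMF7, GPRC5D, CD48 and TNFRSF13B), where 49% of all tested genes passed, 25.2% up and 23.7% down. The 9 calls in MM1S became 4 without vehicle replicate 1 of MM1S, and 4 with only the compared groups in the fit, when SDC1, TNFRSF17, FCRL5, CD47 and CD48 were lost. In MM1R, 3 rose (CD38, FCRL5 and CD47) and the same 5 fell, where 53.4% of all tested genes passed, 25.8% up and 27.6% down. The changes were small apart from CD38 and FCRL5, with log2 fold changes from -0.58 to 0.20 for the other 7 genes in MM1S and between -0.35 and 0.15 in MM1R. A difference between the lines in the TAK-981 effect passed the threshold for none of the 9 genes in the edgeR test, against 4.16% of all tested genes, and had an unadjusted p under 0.05 for CD38 and GPRC5D, as for 3021 genes in all. The difference was 0.41 for CD38 (edgeR adjusted p = 0.0747) and 0.34 for GPRC5D (edgeR adjusted p = 0.0789). It passed without TAK-981 replicate 1 of MM1S (0.46 for CD38, 0.42 for GPRC5D) and, for CD38, without vehicle replicate 2 of MM1S (0.54).

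With Dex most antigens changed in MM1S, and the difference between the lines was tested gene by gene. In MM1S, 6 of the 9 fell (CD38, GPRC5D, SLAMF7, TNFRSF17, TNFRSF13B and CD48) and SDC1 rose, where 42.3% of all tested genes passed, 21.5% down and 20.8% up. CD47 (-0.13, edgeR adjusted p = 0.0817) and FCRL5 (0.03, edgeR adjusted p = 0.938) did not pass. The median log2 fold change of the 9 was -0.49, beside 0.01 over all tested genes. In MM1R no antigen passed, as no gene of the 14215 did (0%, edgeR), with 395 genes at an unadjusted p under 0.05, none of them an antigen. The log2 fold changes of the 9 in MM1R ran from -0.08 to 0.07. The cell line by Dex interaction passed for 7 of the 9, the same 7 that changed in MM1S, where 28.1% of all tested genes passed, 15% with a positive and 13.1% with a negative value.

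In the combo, most antigens of MM1S stood further from vehicle than with either drug, while in MM1R no difference from TAK-981 alone was detected. All 9 differed from vehicle in MM1S, with 3 higher (SDC1, CD38 and FCRL5) and 6 lower, where 60.3% of all tested genes passed, 30.8% higher and 29.5% lower. Against Dex alone 8 of the 9 differed in MM1S, where 47.6% of all tested genes did, 2 of them higher (22.2%) and 6 lower (25.4%). Against TAK-981 alone 8 differed, where 35.1% did, 1 higher (14.5%) and 7 lower (20.6%). In MM1R, 8 of the 9 differed from vehicle (51.5% of all tested genes), 3 higher (24.8%) and 5 lower (26.7%), and 5 differed from Dex alone (48.4%), 3 higher (23.1%) and 2 lower (25.3%). The 8 calls against vehicle in MM1R became 5 without vehicle replicate 1 or combo replicate 2 of MM1R, and the 5 against Dex alone became 3 without combo replicate 1 or 2. The 8 against Dex alone in MM1S became 5 without Dex replicate 2 or combo replicate 2. Among these, the calls of SDC1 (-0.18), CD47 (-0.15) and CD48 (-0.16) in MM1S were lost without Dex replicate 2 (-0.08, -0.17 and -0.12), and also without combo replicate 2 (-0.22, -0.08 and -0.15). SDC1 and CD48 lost theirs without combo replicate 1 as well (-0.135 and -0.17), and CD47 without Dex replicate 1 (-0.14). In MM1R the calls of GPRC5D (-0.21) and CD47 (0.15) against Dex alone were lost without any 1 of their 4 libraries (-0.225 to -0.189 and 0.115 to 0.18). CD48 passed without Dex replicate 1 of MM1R (-0.21) and SDC1 without Dex replicate 2 (0.22). None passed against TAK-981 alone in MM1R, as no tested gene did (0%, edgeR), with 214 genes at an unadjusted p under 0.05. These comparisons share their vehicle, Dex and TAK-981 libraries and are not independent of each other.

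**Figure D2:**
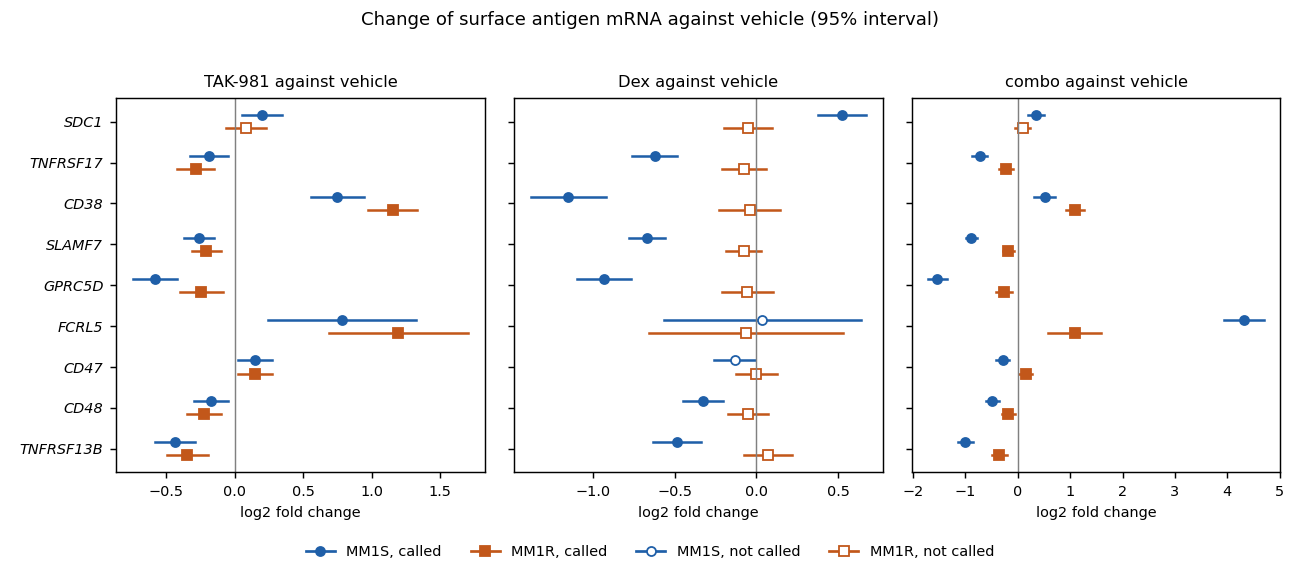
Log2 fold change against vehicle of the 9 tested genes for TAK-981, Dex and the combo in MM1S (circles) and MM1R (squares), with 95% intervals from the edgeR fit. Filled points passed an adjusted p of 0.05 and open points did not. Each panel has its own horizontal scale. With Dex 7 of the 9 MM1S points are filled, all but FCRL5 and CD47, and every MM1R point is open, and FCRL5 stands apart in the combo panel at 4.32 in MM1S.

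Whether the combo did more than the sum of its parts was tested as the TAK-981 by Dex interaction. In MM1S it passed for 4 of the 9 antigens, where 14.9% of all tested genes passed, 5.47% with a positive and 9.48% with a negative value. The combo level lay above the sum of the separate log2 changes for FCRL5 and CD38 and below it for SDC1 and CD47. The SDC1 and CD47 calls were both lost, which left 2, without vehicle replicate 1, without Dex replicate 2 or with only the compared groups in the fit. The other 5 antigens, TNFRSF17, SLAMF7, GPRC5D, CD48 and TNFRSF13B, had interactions between -0.08 and 0.08. In MM1R none of the 9 passed, as no tested gene did (0%, edgeR), with 400 genes at an unadjusted p under 0.05. Their interactions in MM1R ran from -0.07 to 0.14.

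**Figure D3:**
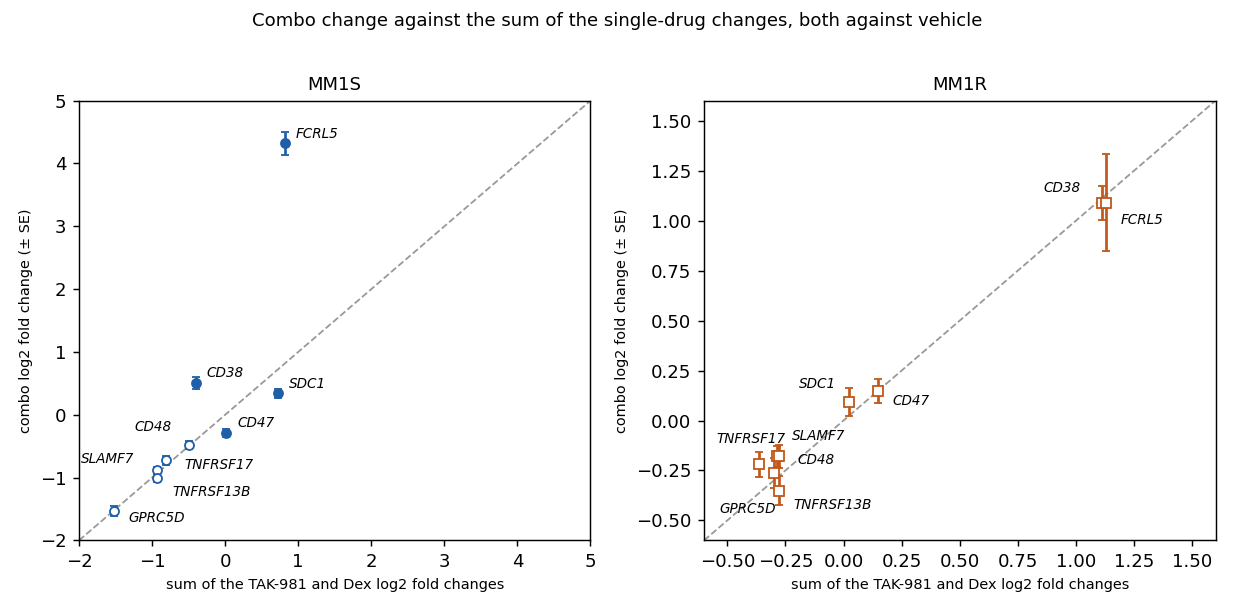
Log2 fold change of the combo against vehicle (vertical, ± SE) plotted against the sum of the TAK-981 and Dex log2 fold changes (horizontal) for the 9 tested genes in MM1S (left) and MM1R (right). The dashed line marks equality, filled points passed the interaction test at an adjusted p of 0.05, and the 2 panels have different scales. FCRL5 lies 3.50 above the line in MM1S and on it in MM1R.

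TNFRSF17 and TNFRSF13B, the tested members of the TNF receptor superfamily, fell with each drug in MM1S. TNFRSF17, the target of belantamab mafodotin and of the approved CAR T cell products against BCMA, lies on hg19 chr16:12058964-12061925, plus strand. In MM1S it was at 259 and 254 CPM with vehicle, 224 and 226 CPM with TAK-981, 158 and 175 CPM with Dex and 164 and 146 CPM with the combo. In MM1R it was at 288 and 284 CPM with vehicle, 234 and 235 CPM with TAK-981, 262 and 280 CPM with Dex and 250 and 241 CPM with the combo. Dex and combo libraries of MM1S overlapped each other and lay below all other libraries. The log2 fold change was -0.62 for Dex in MM1S (SE 0.07, edgeR adjusted p = 3.78e-07) and -0.73 for the combo (SE 0.07, edgeR adjusted p = 1.99e-08), while the combo against Dex alone did not pass (-0.10, 95% interval -0.24 to 0.03). With TAK-981 the change was smaller, at -0.19 in MM1S (edgeR adjusted p = 0.0233) and -0.29 in MM1R (edgeR adjusted p = 0.00118). The MM1S value lost its call without TAK-981 replicate 1 (-0.18), vehicle replicate 1 (-0.17) or vehicle replicate 2 (-0.205). The change under the combo in MM1R (-0.22, edgeR adjusted p = 0.00836) lost its call without combo replicate 2 (-0.195) or vehicle replicate 1 (-0.21).

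TNFRSF13B, which shares both ligands with TNFRSF17 (hg19 chr17:16832849-16875402, minus strand), fell furthest in the combo. MM1S libraries were at 186 and 204 CPM with vehicle, 133 and 155 CPM with TAK-981, 142 and 137 CPM with Dex and 95.1 and 99.8 CPM with the combo. MM1R libraries were at 121 and 121 CPM with vehicle, 93.3 and 97.2 CPM with TAK-981, 131 and 123 CPM with Dex and 94.9 and 95.2 CPM with the combo. MM1S cells given the combo thus came to the level of MM1R cells given TAK-981, and the libraries of those groups overlapped. In MM1S the log2 fold change was -0.44 for TAK-981 (SE 0.07, edgeR adjusted p = 4.29e-05), -0.49 for Dex (SE 0.07, edgeR adjusted p = 1.67e-05) and -1.0 for the combo (SE 0.07, edgeR adjusted p = 6.56e-10). The combo was 0.5 times the vehicle level, and its distance from the sum of the separate changes was -0.08 (95% interval -0.28 to 0.13). In MM1R it fell with TAK-981 (-0.35, edgeR adjusted p = 0.000488) and not with Dex (0.07, 95% interval -0.08 to 0.22), a difference between the lines in the Dex effect of 0.56 (edgeR adjusted p = 0.000314). CD27, the other member of the superfamily, was too low to test, with 0 to 9 counts in any library.

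Of the SLAM family members, SLAMF7 and CD48 fell with each drug in MM1S. SLAMF7 is the target of the antibody elotuzumab and lies on hg19 chr1:160709077-160724601, plus strand. In MM1S it was at 758 and 755 CPM with vehicle, 643 and 618 CPM with TAK-981, 482 and 468 CPM with Dex and 395 and 424 CPM with the combo. In MM1R it was at 806 and 813 CPM with vehicle, 695 and 707 CPM with TAK-981, 754 and 779 CPM with Dex and 716 and 713 CPM with the combo. The 4 groups of MM1S did not overlap, and they stood in the order vehicle, TAK-981, Dex and combo. The log2 fold changes in MM1S were -0.26 for TAK-981 (SE 0.05, edgeR adjusted p = 0.000342), -0.67 for Dex (SE 0.05, edgeR adjusted p = 5.99e-09) and -0.89 for the combo (SE 0.05, edgeR adjusted p = 3.75e-11). Each of these calls held without any 1 library. In MM1R TAK-981 gave -0.21 (SE 0.05, edgeR adjusted p = 0.00236), and the difference between the lines in the Dex effect was 0.59 (SE 0.07, edgeR adjusted p = 5.73e-06).

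CD48, a GPI-anchored SLAM family protein and the ligand of CD244 (hg19 chr1:160648536-160681641, minus strand, beside SLAMF7), followed the same order with smaller steps. MM1S libraries were at 370 and 352 CPM with vehicle, 326 and 314 CPM with TAK-981, 280 and 295 CPM with Dex and 260 and 256 CPM with the combo. MM1R libraries were at 333 and 325 CPM with vehicle, 279 and 283 CPM with TAK-981, 300 and 335 CPM with Dex and 289 and 292 CPM with the combo. The Dex libraries of MM1R spanned those of vehicle. The log2 fold changes in MM1S were -0.17 for TAK-981 (edgeR adjusted p = 0.0202), -0.33 for Dex (edgeR adjusted p = 0.000188) and -0.48 for the combo (edgeR adjusted p = 1.09e-06). In MM1R TAK-981 gave -0.23 (edgeR adjusted p = 0.00337) and the combo -0.18 (edgeR adjusted p = 0.0158). The difference between the lines in the Dex effect was 0.28 (edgeR adjusted p = 0.0176). Several of these calls rested on single libraries. TAK-981 in MM1S lost its call without TAK-981 replicate 2 (-0.15) or vehicle replicate 1 (-0.14), and the combo in MM1R lost it without combo replicate 1 (-0.18) or 2 (-0.19) or vehicle replicate 1 (-0.165). The Dex difference between the lines lost its call without MM1R Dex replicate 2 (0.20), MM1R vehicle replicate 2 (0.26), MM1S Dex replicate 1 (0.24) or MM1S vehicle replicate 1 (0.24).

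GPRC5D, the target of talquetamab (hg19 chr12:13093709-13103318, minus strand), had the largest fall of the 9 against vehicle, with the combo in MM1S. With Dex alone in MM1S, CD38 fell further (-1.15). In MM1S it was at 93.9 and 86.4 CPM with vehicle, 63.6 and 56.9 CPM with TAK-981, 43.9 and 50.4 CPM with Dex and 29.6 and 32.6 CPM with the combo. In MM1R it was at 94.5 and 99.3 CPM with vehicle, 79.1 and 84.7 CPM with TAK-981, 92.0 and 94.3 CPM with Dex and 81.0 and 80.6 CPM with the combo. The 4 groups of MM1S did not overlap, whereas all libraries of MM1R lay between 79.1 and 99.3 CPM. In MM1S the log2 fold change was -0.58 for TAK-981 (SE 0.08, edgeR adjusted p = 5e-06), -0.94 for Dex (SE 0.08, edgeR adjusted p = 1.92e-08) and -1.53 for the combo (SE 0.08, edgeR adjusted p = 9.98e-12), which left 0.345 times the vehicle level. The sum of the separate changes was -1.52, and the combo departed from it by -0.02 (95% interval -0.26 to 0.22). The Dex effect differed between the lines by 0.88 (SE 0.11, edgeR adjusted p = 5.81e-06). In MM1R TAK-981 gave -0.24 (edgeR adjusted p = 0.011), a call lost without TAK-981 replicate 1 (-0.20) or vehicle replicate 2 (-0.21), and the combo gave -0.26 (edgeR adjusted p = 0.00684), a call lost without vehicle replicate 2 (-0.23).

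CD38, an ectoenzyme and the target of daratumumab and isatuximab, was raised by TAK-981 in both lines and lowered by Dex in MM1S. It lies on hg19 chr4:15779931-15850706, plus strand. In MM1S the counts were 366 and 273 with vehicle, 525 and 491 with TAK-981, 130 and 145 with Dex and 369 and 395 with the combo, which is 17.2 and 14, 27.2 and 25.3, 6.74 and 7.31, and 22.9 and 21.7 CPM. In MM1R the counts were 483 and 493 with vehicle, 836 and 909 with TAK-981, 445 and 451 with Dex and 944 and 899 with the combo, which is 20.0 and 20.3, 44.9 and 44.8, 19.4 and 19.7, and 42.7 and 43.3 CPM. No 2 of the 8 groups overlapped, with MM1R under TAK-981 the highest and MM1S under Dex the lowest. TAK-981 raised CD38 1.68-fold in MM1S (log2 0.75, SE 0.09, edgeR adjusted p = 2.2e-06) and 2.22-fold in MM1R (log2 1.15, SE 0.09, edgeR adjusted p = 3.35e-09).

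Dex lowered CD38 in MM1S to 0.45 times the vehicle level (log2 -1.15, SE 0.11, edgeR adjusted p = 9.81e-08). In MM1R the Dex change was -0.04 (95% interval -0.23 to 0.15), and the difference between the lines was 1.11 (SE 0.14, edgeR adjusted p = 8.92e-06). The combo in MM1S nevertheless stood above vehicle (log2 0.51, SE 0.09, edgeR adjusted p = 0.000141) and 3.17-fold above Dex alone (log2 1.66, SE 0.11, edgeR adjusted p = 4.76e-10). The separate changes summed to -0.405, so that the interaction was 0.92 (SE 0.14, edgeR adjusted p = 0.000316), and it held without any 1 library. The combo lay below TAK-981 alone in MM1S (-0.24, edgeR adjusted p = 0.0497), a call lost without TAK-981 replicate 1 (-0.18), combo replicate 1 (-0.27) or combo replicate 2 (-0.20). In MM1R the combo gave 1.09 over vehicle (SE 0.08, edgeR adjusted p = 6.58e-09), with an interaction of -0.02 (95% interval -0.27 to 0.24).

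FCRL5, the target of cevostamab, was the antigen with the widest range. In hg19 it lies on chr1:157483167-157522310, minus strand, in a row with FCRL4, FCRL3, FCRL2 and FCRL1. In MM1S the counts were 28 and 30 with vehicle, 58 and 37 with TAK-981, 32 and 25 with Dex and 483 and 493 with the combo. In MM1R the counts were 26 and 37 with vehicle, 61 and 55 with TAK-981, 29 and 28 with Dex and 67 and 52 with the combo. The combo libraries of MM1S, at 29.9 and 27.1 CPM, lay far above the other 14 libraries, which ran from 1.07 to 3.27 CPM. Against vehicle the combo in MM1S was 19.9-fold higher (log2 4.32, SE 0.18, edgeR adjusted p = 2.46e-13), against Dex alone 19.5-fold (log2 4.28, SE 0.18, edgeR adjusted p = 2.42e-12) and against TAK-981 alone 11.6-fold (log2 3.53, SE 0.17, edgeR adjusted p = 8.29e-12). The interaction of TAK-981 with Dex was 3.50 (SE 0.35, edgeR adjusted p = 2.66e-06), and between 3.21 and 3.86 when any 1 library was dropped.

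In MM1R, FCRL5 under the combo was at 2.13 times the vehicle level (log2 1.09, SE 0.24, edgeR adjusted p = 0.00101) and the interaction was -0.04 (95% interval -0.79 to 0.71). TAK-981 alone raised FCRL5 in MM1R (log2 1.19, SE 0.24, edgeR adjusted p = 0.000453) and in MM1S (log2 0.78, SE 0.26, edgeR adjusted p = 0.0172). The MM1S change rested on few counts and lost its call without TAK-981 replicate 1 (0.42) or vehicle replicate 1 (0.67). Dex alone gave 0.03 in MM1S (95% interval -0.57 to 0.64). Even in the combo, FCRL5 in MM1S reached 3.32 ± 0.232 CPM per kb (SD, n = 2), above 34.4% of the tested genes.

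The genes around FCRL5 were read after its values were seen. Within 500 kb on either side the table holds 10 other genes, of which 5 were tested (FCRL1, FCRL2, ETV3, CD5L and ARHGEF11). All 5 were higher in the MM1S combo than in MM1S vehicle, as were 30.8% of all tested genes. FCRL2 had 21 and 34 counts with vehicle, 62 and 43 with TAK-981, 21 and 14 with Dex and 174 and 171 with the combo, an interaction of 2.48 (SE 0.43, edgeR adjusted p = 0.000756). FCRL1 had 57 and 51 counts with vehicle, 137 and 149 with TAK-981, 56 and 49 with Dex and 191 and 162 with the combo. FCRL1 thus rose with TAK-981 already (log2 1.48, SE 0.17, edgeR adjusted p = 7.63e-07), and its interaction was 0.46 (edgeR adjusted p = 0.215). FCRL4 and FCRL3, too low to test, reached 7 and 13 counts and 14 and 8 counts in the MM1S combo, against at most 5 counts in any other library. ETV3, which encodes an ETS family repressor, had an interaction of 0.76 (SE 0.13, edgeR adjusted p = 0.000723). Unlike FCRL5, ETV3 rose with Dex alone in MM1S (0.67, edgeR adjusted p = 1.03e-05), and it gave -0.02 with TAK-981. In MM1R, 3 of the 5 tested neighbours were higher with TAK-981 (25.8% of all tested genes) and 3 with the combo (24.8%). None differed between the combo and TAK-981 alone, as no tested gene did (0%, edgeR).

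**Figure D4:**
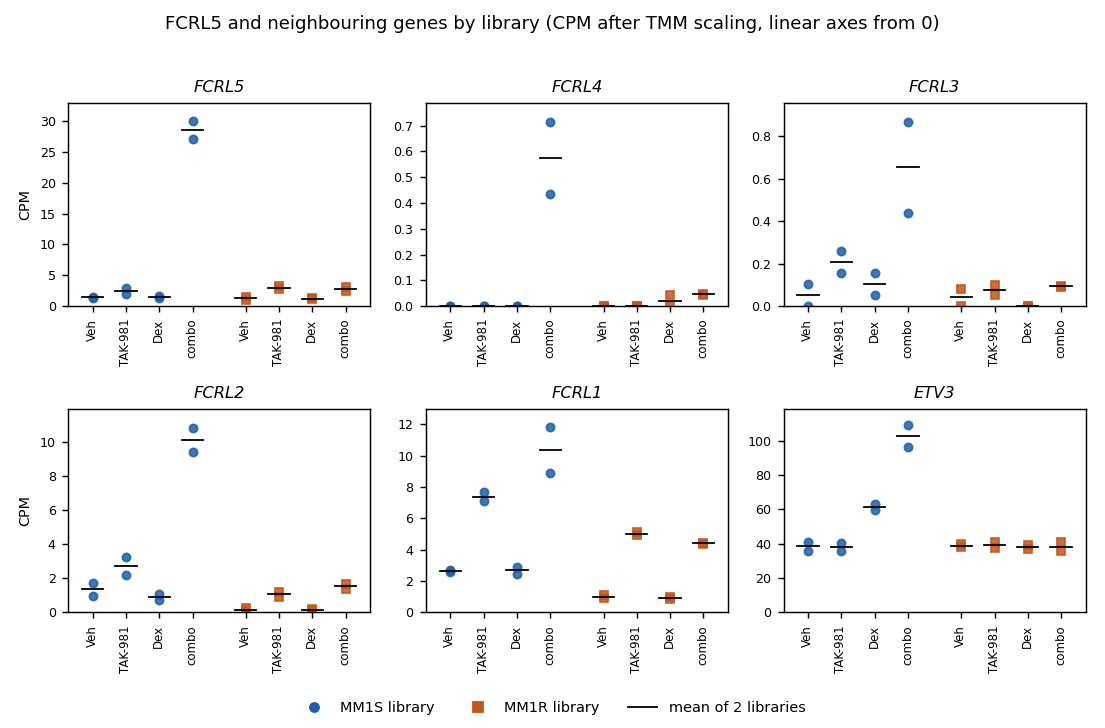
CPM of FCRL5, its FCRL neighbours and ETV3 in each library of MM1S (circles) and MM1R (squares) by treatment, with the mean of 2 libraries as a bar and axes that start at 0. In each panel the 2 libraries of the MM1S combo are the highest, at 27.1 and 29.9 CPM for FCRL5.

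SDC1, the heparan sulfate proteoglycan by which myeloma cells are purified (hg19 chr2:20400558-20425194, minus strand), rose with Dex in MM1S, the only one of the 9 to pass in that direction. MM1S libraries were at 495 and 500 CPM with vehicle, 539 and 602 CPM with TAK-981, 667 and 762 CPM with Dex and 612 and 652 CPM with the combo. MM1R libraries were at 886 and 921 CPM with vehicle, 936 and 973 CPM with TAK-981, 825 and 916 CPM with Dex and 953 and 971 CPM with the combo. Every MM1R library lay above every MM1S library. The Dex change in MM1S was 0.52 (SE 0.07, edgeR adjusted p = 8.04e-06), and it differed from that in MM1R by -0.58 (SE 0.10, edgeR adjusted p = 0.000228). The combo in MM1S was 0.34 above vehicle (edgeR adjusted p = 0.00034), below the sum of 0.72 by an interaction of -0.38 (SE 0.10, edgeR adjusted p = 0.0164). That interaction lost its call without Dex replicate 2 (-0.27), TAK-981 replicate 2 (-0.29), combo replicate 1 (-0.33) or vehicle replicate 1 (-0.37). TAK-981 alone gave 0.20 in MM1S (edgeR adjusted p = 0.0262), a call lost without TAK-981 replicate 2 (0.11), vehicle replicate 1 (0.19) or vehicle replicate 2 (0.20), and 0.08 in MM1R (95% interval -0.07 to 0.23). The combo against TAK-981 alone in MM1S (0.15, edgeR adjusted p = 0.112) passed without TAK-981 replicate 2 (0.23).

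CD47, the signal against phagocytosis (hg19 chr3:107761941-107809935, minus strand), lay between 157 and 231 CPM in all 16 libraries. In MM1S it was at 202 and 201 CPM with vehicle, 231 and 217 CPM with TAK-981, 186 and 182 CPM with Dex and 174 and 157 CPM with the combo. In MM1R it was at 170 and 174 CPM with vehicle, 194 and 188 CPM with TAK-981, 176 and 168 CPM with Dex and 192 and 190 CPM with the combo. TAK-981 thus raised it a little in both lines (0.15 in MM1S, edgeR adjusted p = 0.0474, and 0.15 in MM1R, edgeR adjusted p = 0.0421), while the combo lay below vehicle in MM1S (-0.29, SE 0.06, edgeR adjusted p = 0.000429) and above it in MM1R (0.15, edgeR adjusted p = 0.0451). The interaction in MM1S was -0.30 (SE 0.08, edgeR adjusted p = 0.0222). Most of these calls were narrow. TAK-981 in MM1S lost its call without TAK-981 replicate 1 (0.10), vehicle replicate 1 (0.15) or vehicle replicate 2 (0.14), and TAK-981 and the combo in MM1R lost theirs without any 1 of their 4 libraries (0.12 to 0.17 and 0.13 to 0.16). The interaction lost its call without Dex replicate 2 (-0.31), combo replicate 2 (-0.23), vehicle replicate 1 (-0.305) or vehicle replicate 2 (-0.30).

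**Figure D5:**
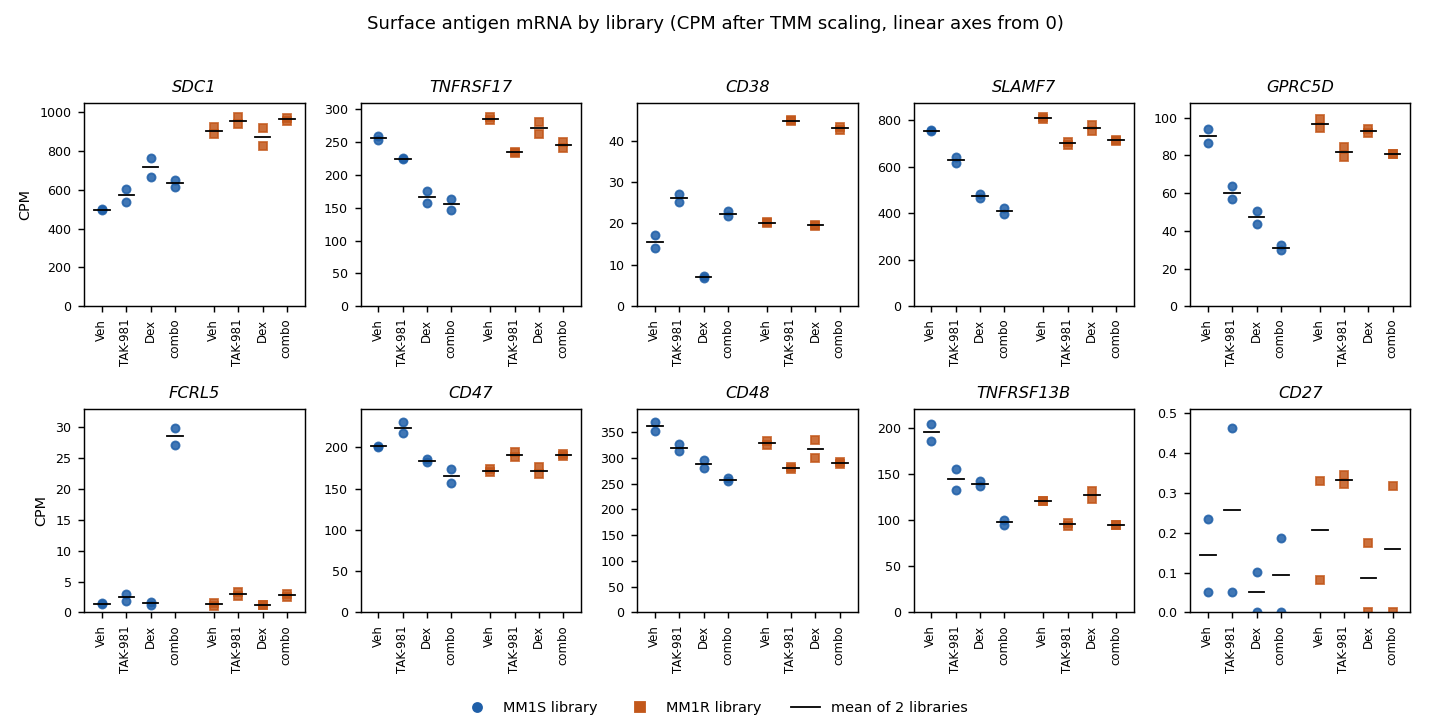
CPM of the 10 genes in each of the 16 libraries of MM1S (circles) and MM1R (squares) by treatment, with the mean of 2 libraries as a bar and linear axes that start at 0. GPRC5D falls step by step in MM1S from 90.2 to 31.1 CPM on average, CD38 is lowest with Dex in MM1S at 7.02 CPM, and FCRL5 is at 28.5 CPM in the MM1S combo against at most 2.99 CPM on average elsewhere.

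The partners of the antigens were read from a list of 11 genes, of which 8 were tested. With Dex in MM1S 2 fell and 1 rose, where 42.3% of all tested genes passed, with a median log2 fold change of -0.36 beside 0.01 over all tested genes. PECAM1, a binding partner of CD38, changed by -3.76 on the log2 scale (SE 0.29, edgeR adjusted p = 6.96e-09), from 7.64 to 0.56 CPM on average. CD70, the ligand of CD27, fell (-0.70, edgeR adjusted p = 8.22e-05) and TNFSF13, which encodes APRIL, rose (0.52, edgeR adjusted p = 0.0184). With TAK-981, 2 rose and 3 fell in MM1S and 3 rose and 2 fell in MM1R, where 49% and 53.4% of all tested genes passed. CD58 fell in both lines (-0.80 and -0.58), and so did SIRPA, the receptor of CD47 (-0.47 and -0.30), whereas PECAM1 rose in both (0.69 and 0.91). CD70 rose in MM1S (0.36, edgeR adjusted p = 0.0103) and gave -0.02 in MM1R. TNFSF13B, which encodes BAFF, rose in MM1R (1.33, edgeR adjusted p = 0.00181) and gave 0.50 in MM1S (edgeR adjusted p = 0.192). For neither CD70 nor TNFSF13B did the difference between the lines in the TAK-981 effect pass. It was -0.37 for CD70 (edgeR adjusted p = 0.156) and 0.83 for TNFSF13B (edgeR adjusted p = 0.297).

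Of 22 relatives of the antigens, 13 were tested. TAK-981 raised 7 and lowered 2 in MM1S, with a median of 0.36 beside 0.04 over all tested genes, 25.2% of which rose and 23.7% fell. In MM1R it raised 5 and lowered 2, with a median of 0.60, where 25.8% of all tested genes rose and 27.6% fell. LY9, a SLAM family receptor beside SLAMF7, rose in both lines (0.60 in MM1S and 0.72 in MM1R), as did SLAMF6 (0.43 and 0.54), whose relatives SLAMF7 and CD48 fell. FCRL1 rose by 1.48 in MM1S and 2.31 in MM1R. CD40 rose in both lines (0.51 and 0.91). SDC2 fell in MM1S (-1.37, edgeR adjusted p = 0.000507), from 2.74 to 1.06 CPM on average, and gave -1.18 in MM1R (edgeR adjusted p = 0.347). In MM1R SDC2 averaged 0.124 CPM with vehicle and 0.0515 CPM with TAK-981, so its change there rests on very few counts. With Dex in MM1S, 3 relatives fell, FCRLA (-0.93), SLAMF6 (-0.58) and TNFRSF8 (-1.01), and SDC2 rose (0.97). Of all tested genes, 21.5% fell and 20.8% rose.

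Of 16 genes for shedding and processing at the surface, 15 were tested. The γ-secretase complex, which sheds BCMA from the cell, includes PSEN2, and PSEN2 rose with TAK-981 in MM1S (0.85, edgeR adjusted p = 5.82e-08) and less in MM1R (0.29, edgeR adjusted p = 0.00362), a difference of -0.56 that passed (edgeR adjusted p = 0.00695). It also rose with Dex in MM1S (0.53, edgeR adjusted p = 3.03e-05). Its subunit gene APH1B rose with TAK-981 in both lines (1.16 and 1.14). ADAM10, a sheddase, fell with Dex in MM1S (-0.57, edgeR adjusted p = 4.24e-07), and so did HPSE, the heparanase that trims heparan sulfate on SDC1 (-0.85, edgeR adjusted p = 4.2e-06). QPCTL, the enzyme that modifies CD47 for binding to SIRPA, fell with TAK-981 in MM1R (-0.52, edgeR adjusted p = 0.00159) and gave -0.31 in MM1S (edgeR adjusted p = 0.0526). MMP9 rose with TAK-981 in both lines (3.87 and 3.85), from 0.0491 to 0.801 CPM in MM1S and from 0.103 to 1.57 CPM in MM1R on average. Both vehicle means lay below the level of 3 counts (0.145 and 0.158 CPM in MM1S, 0.123 and 0.121 CPM in MM1R). The MMP9 fold changes thus rest on few counts. EXT1 rose with TAK-981 in both lines (0.47 and 0.23), and SDCBP fell with Dex in MM1S (-0.41). Over the list, TAK-981 raised 6 and lowered 1 in MM1S and raised 5 and lowered 5 in MM1R, where 49% and 53.4% of all tested genes passed. Dex in MM1S raised 3 and lowered 5, where 42.3% of all tested genes passed.

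Of 15 genes for adaptors and kinases inside the cell, 13 were tested. TAK-981 raised 7 and lowered 2 in MM1S, where 25.2% of all tested genes rose and 23.7% fell, and raised 9 and lowered 2 in MM1R, where 25.8% rose and 27.6% fell. BIRC3, a partner of the TRAF proteins that TNF receptors recruit, rose by 1.89 in MM1S (edgeR adjusted p = 2.85e-10) and 2.12 in MM1R (edgeR adjusted p = 1.18e-10), from 217 to 803 CPM and from 138 to 597 CPM on average. LYN rose in both lines (0.32 and 0.41), as did INPP5D (0.27 and 0.19) and PTPN6 (0.23 and 0.26), and SIVA1, which binds the tail of CD27, fell in both (-0.44 and -0.90). TRAF6 rose in MM1R (0.45) and gave 0.05 in MM1S, a difference between the lines of 0.40 (edgeR adjusted p = 0.0438). Dex in MM1S raised FYN (0.92, edgeR adjusted p = 2.32e-08) and INPP5D (0.49) and lowered TRAF5 (-0.36) and TRAF3 (-0.26).

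A list of 34 other surface antigens of myeloma, of which 28 were tested, set the members beside further candidates. Dex in MM1S lowered 10 and raised 5, where 21.5% of all tested genes fell and 20.8% rose. TAK-981 raised 10 and lowered 6 in MM1S (25.2% and 23.7% of all tested genes) and raised 13 and lowered 9 in MM1R (25.8% and 27.6%). The combo lowered 18 and raised 7 in MM1S (29.5% and 30.8% of all tested genes). The TAK-981 by Dex interaction in MM1S was negative for 13 and positive for 2 (9.48% and 5.47% of all tested genes), with a median of -0.32 beside -0.03 over all tested genes. CXCR4, the chemokine receptor for homing to the marrow, rose with Dex in MM1S by 3.19 (edgeR adjusted p = 2.51e-16), from 24.0 to 219 CPM on average, and was at 543 CPM with the combo. CD74 fell with Dex in MM1S (-1.11), as did NCAM1 (-1.82) and TFRC (-0.86). ICAM1 rose with TAK-981 in both lines (0.97 and 0.74), as did FGFR3 (3.11 and 2.65) and CD86 (0.57 and 0.93), and SLC1A5 (-1.20 and -1.02) and LAMP5 (-0.73 and -0.63) fell in both. FGFR3 went from 0.585 to 5.14 CPM in MM1S and from 0.495 to 3.15 CPM in MM1R on average, so its large fold changes start from few counts.

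The antigens varied together in part. Over the 16 libraries the log2 CPM of TNFRSF17, SLAMF7 and GPRC5D correlated at a Pearson r of 0.95 to 0.98, as a description of libraries that share lines and treatments. TNFRSF13B and CD48 correlated at 0.75, and SDC1 and TNFRSF13B at -0.70. Genes most like the antigens over the 16 libraries included R3HDM4 for SDC1 (r = 0.994), MID1IP1 for TNFRSF17 (0.985), GSTM2 for CD38 (0.979), VASH2 for SLAMF7 (0.988), CENPA for GPRC5D (0.989), PPP2R3A for FCRL5 (0.966), RTN4 for CD47 (0.945), TSPAN5 for CD48 (0.948) and LAMP5 for TNFRSF13B (0.960). Further genes were MED16 for SDC1, CXCR3 for TNFRSF17, DOCK8 for CD38, FAM26E for GPRC5D, CLASP1 for FCRL5, OSBPL1A for CD47, GHITM for CD48 and QRICH2 for TNFRSF13B.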

How the data were processed

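RNA-seq of total RNA after ribosomal depletion was measured in 16 libraries. The authors deposited a table of raw read counts per gene, made, per the submitters' processing notes, with bcl2fastq 2.18.0.12, STAR 2.6.0 and HTSeq 0.6.0 on hg19, with edgeR 3.28.1 also named. No column was left unmapped. The strand setting of counting is not given in the sources used here, so antisense and overlapping rows can share reads. Groups came from the sample labels.

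Genes were filtered with filterByExpr, scaled by TMM and fitted in R 4.3.3 with the quasi-likelihood test of edgeR 4.0.16 (limma 3.58.1), with 1 term per group over all 16 libraries and 8 residual degrees of freedom. P-values were two-sided and adjusted by Benjamini-Hochberg over the 14215 genes tested, with a threshold of 0.05 for the 15 comparisons. SE is the log2 fold change divided by the root of F. CPM used TMM sizes, and log2 CPM a prior count of 2. Intervals cover 95%. Alternatives were relative log expression (RLE) scaling, library size alone, no filter, a replicate block, DESeq2 1.42.0, only the groups compared, and each library left out. The code was tested on simulated data.

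The members and lists were chosen with earlier results of these data known. Genes named were the 10 members, up to 4 genes per list with the smallest adjusted p (TAK-981 in either line, or Dex in MM1S), the 2 genes most correlated with each member, the markers, and the FCRL5 neighbours, chosen after their values were seen. A few genes that this rule names are not reported here. Upstream sequences came from RefSeq (GRCh38.p14), gene positions from the deposited table (hg19).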

Additional observations from a re-analysis of the deposited data

Results flagged for a closer look

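In MM1S the effect of TAK-981 differed with and without Dex for 4 antigens by the edgeR interaction test, with values of -0.375 for SDC1, 0.915 for CD38, 3.50 for FCRL5 and -0.302 for CD47 on the log2 scale. SDC1 and CD47 lost their calls with only the compared groups in the fit and without some single libraries.

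Between MM1S and MM1R the effect of Dex differed for 7 antigens by the edgeR interaction test. The difference (MM1R minus MM1S) was -0.576 for SDC1, 0.546 for TNFRSF17, 1.11 for CD38, 0.592 for SLAMF7, 0.878 for GPRC5D, 0.278 for CD48 and 0.559 for TNFRSF13B. The CD48 difference lost its call without some single libraries. Each group held 2 libraries, too few for a check of single outlying samples.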

How the results depend on the processing

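For the 77 member results that passed, alternatives kept direction and call in 714 recomputed values, lost the call in 100 and reversed 0. RLE scaling and DESeq2 moved no count of passing members or genes by over 1.5 times. With library size alone, 5 members passed for combo against Dex in MM1S and 2 for the line by TAK-981 interaction. Without the filter that interaction gave 1 member and 1313 genes, and in MM1R 30 genes passed for Dex, 9 for combo against TAK-981 and 19 for the TAK-981 by Dex interaction. With only the groups compared, 4 members passed for combo against Dex and 4 for TAK-981 in MM1S, 2 members and 779 genes for the TAK-981 by Dex interaction in MM1S, and 3 genes for combo against TAK-981 in MM1R. FCRL5 with TAK-981 in MM1S then missed the threshold (0.76, edgeR adjusted p = 0.0616). In MM1R, 9 members then passed for TAK-981, against 8 in the main fit. CD38 for combo against TAK-981 in MM1S passed in no alternative of scaling, filter, tool or groups other than the replicate block. CD47 lost its calls for TAK-981 in both lines under RLE, library size alone, no filter and DESeq2.

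The labels do not say whether the replicate numbers pair the samples, and this was not settled. Deviations of same-numbered libraries correlated at 0.016 to 0.26 in MM1S and -0.013 to 0.082 in MM1R. The highest values in MM1S were 0.26 for TAK-981 and Dex and 0.14 for TAK-981 and the combo. With the replicate block, 3579 genes passed for the TAK-981 by Dex interaction in MM1S, 8 members for combo against Dex in MM1R, and 2 members and 2061 genes for the line by TAK-981 interaction.

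With 1 library left out at a time, members passing were 4 to 7 for TAK-981, 5 to 7 for combo against Dex and 2 to 4 for the TAK-981 by Dex interaction (1044 to 3724 genes) in MM1S. In MM1R they were 5 to 6 for combo against vehicle and 3 to 4 for combo against Dex, with 0 to 9 genes for Dex, 0 to 1 for combo against TAK-981 and 0 to 1 for the TAK-981 by Dex interaction. The line by TAK-981 interaction gave 0 to 2 members and 200 to 2292 genes. Where a group kept 1 library, it was assumed to vary like the others.

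The sign changed for some results that did not pass. GPRC5D gave 0.0552 with library size alone for TAK-981 by Dex in MM1S, and CD47 -0.00118 without the filter for line by TAK-981. Leaving out a library gave, for TAK-981 by Dex in MM1S, CD48 -0.0191 to 0.0603, GPRC5D -0.112 to 0.0926, SLAMF7 -0.00259 to 0.0981, TNFRSF13B -0.179 to 0.0372 and TNFRSF17 -0.00492 to 0.167. For line by TAK-981 it gave CD47 -0.0428 to 0.0477 and TNFRSF13B -0.0137 to 0.202. FCRL5 ranged from -0.292 to 0.211 for Dex in MM1R, -0.173 to 0.214 for Dex in MM1S, -0.402 to 0.1 between the lines, -0.314 to 0.189 for TAK-981 by Dex in MM1R, -0.326 to 0.177 for line by Dex and -0.251 to 0.0355 for combo against TAK-981 in MM1R. The causes were not tested. Depth limits FCRL5 outside the MM1S combo (25 to 67 counts) and CD27.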
